A study of Danio rerio with 15 samples.

Results

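The earliest response sampled after a light lesion of the zebrafish retina was described from 6 arrays of Müller glia. Of these, 3 held cells taken at 8 hours post-lesion (8 hpl) and 3 held cells from retinas without light treatment (0 hpl). The series has 15 arrays and also covers 16, 24 and 36 hpl. Both groups came from fish of the line Tg(gfap:GFP)mi2002, aged 5 to 6 months. In this line the promoter of gfap, a gene active in Müller glia, drives green fluorescent protein, and cells were sorted by this fluorescence after enzymatic dissociation. The unlesioned controls carry the transgene and passed the same sort. Each array was hybridised with biotin-labelled material amplified from 20 ng of total RNA, and the replicates were labelled as separate biological samples. All 15502 probe sets other than the 115 Affymetrix controls were compared, and 2331 genes have a symbol in the authors' deposited table.

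Müller glia are the radial glia of the retina. They recycle glutamate and retinoids, buffer ions and water, and span the tissue from the photoreceptors to the inner surface. In zebrafish they also answer the death of photoreceptors by leaving their resting state, dividing and giving rise to progenitors that rebuild the lost neurons. Cytokine signalling through Jak kinases and Stat transcription factors, growth factor signalling through MAP kinases, and the factors Ascl1a and Sox2 are known parts of that response, and DNA synthesis follows only later.

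The cells carried the transcripts of their labelled type. Glutamine synthetase glula, which turns glutamate into glutamine in glia, read 11.53, 11.42 and 10.96 in the 8 hpl arrays, against 11.75, 11.80 and 11.70 in the 0 hpl arrays (log2 values). The retinaldehyde-binding protein rlbp1a read 10.35, 10.10 and 10.57 at 8 hpl, against 11.31, 11.40 and 11.28 at 0 hpl. The gap junction gene gja1b, read in addition to the genes picked by rule, lay at 12.33, 12.29 and 12.15 at 8 hpl and 12.67, 12.72 and 12.51 at 0 hpl. All of these stood far above the median probe set, which lay at 4.63 on the unlesioned arrays. The rod opsin gene rho, also outside the rule, read 10.35, 10.96 and 9.75 at 8 hpl and 9.97, 9.99 and 9.42 at 0 hpl, so transcripts of rods were present in every array too.

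At 8 hpl 4108 probe sets passed the test (limma, Benjamini-Hochberg adjusted p under 0.05), which is 26.5% of those tested. Of these 1862 were higher (12%) and 2246 lower (14.5%) than at 0 hpl. At least 2-fold changes were fewer and leaned the other way, with 680 probe sets higher (4.39%) and 372 lower (2.40%). At least 4-fold changes numbered 104 higher and 42 lower. At least 8-fold ones numbered 15 and 6. No array at 8 hpl fell within the control range for 3856 of the called probe sets and for 38.6% of all those tested, with all 3 above it in 15.3% and all 3 below it in 23.2%. In the plot of all probe sets the rises reach further from 0 than the falls do.

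**Figure D1:**
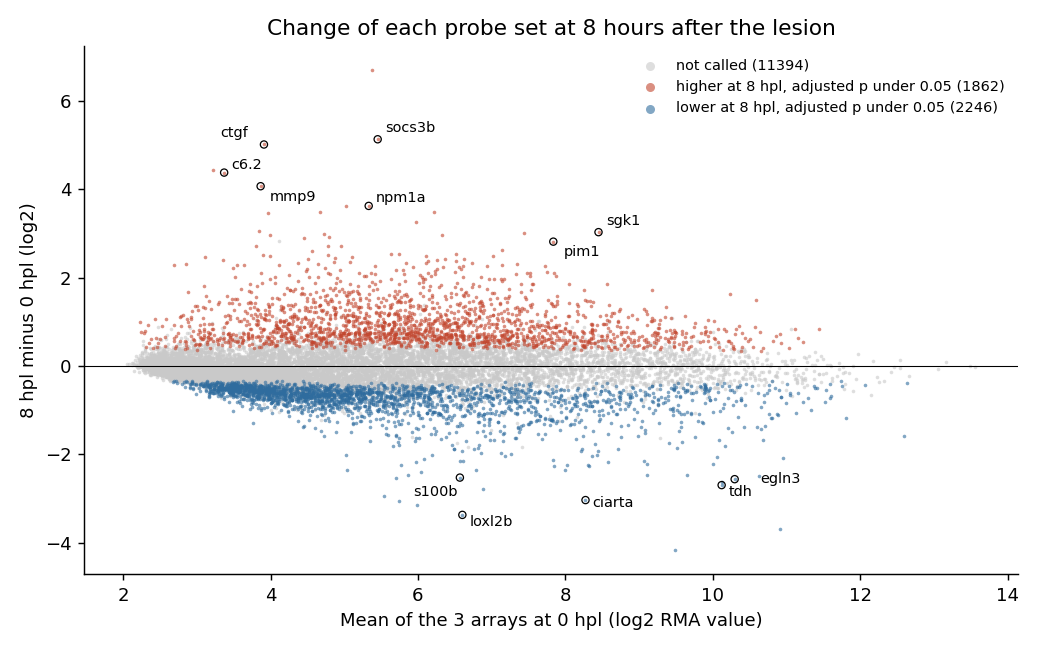
Change at 8 hpl (8 hpl minus 0 hpl, log2, vertical axis) against the mean of the 3 arrays at 0 hpl (log2 RMA value, horizontal axis), 1 point per probe set, with called rises in red (1862), called falls in blue (2246) and the others in grey. Circled points are named genes. The topmost point is LOC570832, a complement C7-like locus that rose by 6.70, and many called falls are small.

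The balance of rises and falls changes with the scaling of the arrays. The median of all probe sets moved by -0.10 on the deposited values, and spiked hybridisation controls stood 0.44 lower at 8 hpl (10.75 ± 0.32 against 11.19 ± 0.14, SD, n = 3 each, two-sided exact permutation p = 0.2, where 3 against 3 arrays cannot go below 0.1). Scaling on those controls adds 0.44 to every change, puts that median at 0.34 and gives 3576 rises and 220 falls. Centring each array on its median gives 2440 rises and 1239 falls. The array labelled 8 hpl replicate 3 had the lowest array weight of the 15 (0.37), and 0 hpl replicate 3 the next lowest (0.48). The lowest correlation between arrays was 0.973 within 8 hpl and 0.976 within 0 hpl, against 0.990, 0.989 and 0.985 within 16, 24 and 36 hpl. Without 8 hpl replicate 3, 1917 probe sets were higher and 1429 lower. RMA values carry no detection call, so a fold is given for a gene where the lower group mean is above 4.63, and otherwise the log2 change alone, whose lower level is not shown to be above background. The genes that carry names here have a change of at least 2-fold at some time in the authors' table, made from these same samples. Of the 2331 named genes 964 were higher (41.4%) and 529 lower (22.7%) at 8 hpl, with a median change of 0.37, which is the background for each gene list below. This background includes clone and locus names. Only the 1812 genes with another name could enter a list, and shares among those alone were not taken. Counts of lists are no independent evidence of a direction.

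Complement genes held the largest change on the array. The probe set of LOC570832, titled as similar to complement component C7 in the authors' table, read 12.01, 12.29 and 11.90 at 8 hpl, against 5.36, 5.22 and 5.54 at 0 hpl. This 104-fold rise (6.70 ± 0.14, log2 ± SE, adjusted p = 3.45e-14) was the largest of all 15502 probe sets, and its groups lie more than 6 log2 units apart. It is a locus name outside the rule for named genes and was picked after its values were seen. The complement gene c6.2, whose product joins C7 in the pore that complement builds in membranes, read 8.28, 8.38 and 6.56 at 8 hpl, against 3.24, 3.12 and 3.75 at 0 hpl, with the replicate 3 array lowest of the lesioned group. A further locus, LOC794635, similar to complement C4 and likewise picked after its values were seen, changed by 1.41 ± 0.35. The kininogen gene kng1, the source of the peptide bradykinin, read 7.05, 6.89 and 6.09 at 8 hpl, against 4.21, 4.33 and 4.93 at 0 hpl. All 4 named members of the list for complement, coagulation and the acute phase rose. Besides c6.2 and kng1 it holds mvp and a further gene, so its count is not of complement and coagulation genes alone. The shell protein of vault particles, mvp, lay at 8.08, 8.33 and 8.00 at 8 hpl, against 4.69, 4.74 and 4.57 at 0 hpl. In bulk samples more or fewer cells of a type and more or less RNA per cell cannot be told apart.

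Feedback inhibitors and kinases of cytokine signalling rose together. Of 12 named genes of the Jak-Stat list 8 rose, 2 fell and 2 were not called, with a median change of 1.05. The inhibitor socs3b, which binds cytokine receptors and their Jak kinases, read 10.67, 10.80 and 10.27 at 8 hpl, against 6.11, 5.42 and 4.83 at 0 hpl. This change of socs3b was 5.13 ± 0.24 (limma adjusted p = 2.51e-09 at 8 against 0 hpl). Its paralogue socs3a started high and read 10.72, 10.95 and 10.42 at 8 hpl, against 10.01, 9.24 and 8.84 at 0 hpl, a change of 1.33 ± 0.24. The 2 genes were not tested against each other. The serine kinase pim1, a known Stat target that promotes survival, lay at 10.91, 10.74 and 10.30 at 8 hpl and 8.17, 7.57 and 7.77 at 0 hpl, a 7.02-fold rise. Upstream components changed less. The kinase jak1 rose by 1.06 ± 0.15 and the transcription factor stat3 by 1.05 ± 0.24, with stat3 at 7.07, 7.27 and 5.98 at 8 hpl, against 5.62, 5.79 and 5.77 at 0 hpl, where replicate 3 lies close to the controls. The stat3 call was lost when only the 2 groups compared were fitted (limma adjusted p = 0.0505). The gene irf9, whose product joins Stat factors in interferon signalling, rose by 1.66 ± 0.19. The Jak-Stat members that fell were the survival protein mcl1b (-1.17 ± 0.25) and the phosphatase ptpn11b (-0.97 ± 0.20), and neither was called under hybridisation-control scaling.

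The interferon and NF-kB list had 5 of 9 genes higher, 1 lower and a median of 0.88. The transcription factor irf1b read 5.34, 5.33 and 6.59 at 8 hpl, against 3.23, 3.01 and 3.83 at 0 hpl. The proteasome activator psme3, also counted in the proteasome list, changed by 1.40 ± 0.15, and whether it answers to interferon was not tested. The gene nfkbiaa, whose product holds NF-kB in the cytoplasm, changed by 1.04 ± 0.22. The light chain of MHC class I, b2m, changed by 0.88 ± 0.29, a call lost without any 1 of the arrays other than 8 hpl replicate 3. The fall in this list was tapbp.1, whose probe set is titled as an MHC class I gene in the authors' table. It averaged 2.60 ± 0.64 at 8 hpl and 5.54 ± 2.94 at 0 hpl (SD, n = 3 each), with groups that overlap and control arrays from 2.33 to 8.10. The call ended without 8 hpl replicate 1 or 2 and without 0 hpl replicate 1 or 2, when no member of the list was lower.

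Secreted factors changed in both directions. Of 29 named growth factors and cytokines 9 rose, 13 fell and 7 were not called, with a median of -0.44. Scaling on the hybridisation controls left 9 rises and 2 falls and a median of -0.00. The matricellular protein gene ctgf read 9.33, 8.89 and 8.53 at 8 hpl, against 3.80, 3.35 and 4.58 at 0 hpl, a change of 5.01 ± 0.42. The platelet-derived growth factor pdgfaa lay at 7.22, 7.58 and 6.68 at 8 hpl and 4.18, 4.38 and 5.13 at 0 hpl. The EGF receptor ligand hbegfa, known to promote Müller glia reprogramming in zebrafish, lay at 7.93, 8.32 and 7.44 at 8 hpl and 6.26, 6.26 and 5.53 at 0 hpl. All 3 kept the groups apart, as did 3856 of all 4108 called probe sets, and a rule that named ctgf and pdgfaa requires it. The lipoprotein lipase inhibitor angptl4 (1.74 ± 0.24) and the meteorin-like metrnla (1.51 ± 0.18) rose as well. Among the falls was wnt11, a Wnt ligand, at 3.89, 3.65 and 3.86 at 8 hpl, against 5.28, 6.31 and 6.34 at 0 hpl. The enkephalin precursor penkb (-1.68 ± 0.32) and the insulin-like growth factor binding protein igfbp1a (-1.04 ± 0.19) fell too, though igfbp1a was not called under hybridisation-control scaling.

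Receptor genes fell more often than they rose on the deposited scale. Of 12 named cytokine and growth factor receptors 1 rose, 4 fell and 7 were not called, with a median of -0.50. The direction turned under hybridisation-control scaling, with 3 rises, no fall and a median of -0.05. The rise was in nrp2b, a co-receptor for semaphorins and VEGF, at 4.71, 3.21 and 3.68 at 8 hpl, against 2.89, 2.70 and 3.04 at 0 hpl, with replicate 1 highest. The list had no rise without 8 hpl replicate 1 or 0 hpl replicate 2, 3 rises without 8 hpl replicate 3, and 2 falls without 0 hpl replicate 3. The activin receptors acvr2ba (-0.78 ± 0.20) and acvr1ba (-0.82 ± 0.24) and the receptor kinase tyro3 (-0.70 ± 0.18) fell. All 8 named genes of TGF-beta, BMP and activin signalling were called, 3 higher and 5 lower. The falls include acvr2ba and acvr1ba, already counted among the receptors. The corepressor tgif1, which limits TGF-beta signalling, led the rises at 10.10, 9.90 and 9.66 at 8 hpl, against 7.82, 7.74 and 7.70 at 0 hpl. The matrix protein tgfbi (1.33 ± 0.15) and the HLH inhibitor id4 (1.03 ± 0.16) rose, and the activin antagonist fsta fell by 0.96 ± 0.28 with overlapping arrays. Leaving out 8 hpl replicate 1, 8 hpl replicate 3, 0 hpl replicate 1 or 0 hpl replicate 3 brought the falls of this list to 2 or 3, and scaling on the hybridisation controls left none.

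The MAP kinase and stress kinase list lay near the shares of all named genes, with 15 of 31 higher (48.4%), 6 lower (19.4%) and a median of 0.66, or 18 and 3 under hybridisation-control scaling. The kinase sgk1, which acts downstream of phosphoinositide signalling, read 11.49, 11.64 and 11.30 at 8 hpl, against 8.37, 8.55 and 8.43 at 0 hpl, an 8.14-fold rise from an already bright signal. The early response gene ier2a lay at 8.45, 7.96 and 8.12 at 8 hpl and 6.12, 5.70 and 5.71 at 0 hpl. The stress genes gadd45bb (1.86 ± 0.19) and gadd45ba (1.54 ± 0.23), which bind MAP kinase kinase kinases, and phlda2 (1.53 ± 0.18) rose. The p38 activator map2k6 fell to 4.83, 5.04 and 4.81 at 8 hpl, against 6.41, 6.42 and 7.46 at 0 hpl. The MAP kinase-activated kinase mknk2b, which phosphorylates the cap-binding protein eIF4E, fell as well, to 6.90, 7.20 and 6.67 at 8 hpl, against 8.47, 8.49 and 10.24 at 0 hpl. Its other probe sets changed by -1.24 and -1.88.

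Transcription factors of the AP-1 and immediate early class showed 9 rises and 3 falls among 16, with a median of 1.11, or 10 and 1 under hybridisation-control scaling. The AP-1 subunit junba read 9.39, 9.19 and 8.56 at 8 hpl, against 6.75, 6.25 and 6.53 at 0 hpl. Its partner fosl2 lay at 9.52, 9.60 and 9.16 at 8 hpl and 6.93, 7.19 and 7.30 at 0 hpl, and 2 further fosl2 probe sets rose by 2.70 and 2.91. The stress factor atf3 lay at 7.05, 7.46 and 7.32 at 8 hpl and 5.05, 4.97 and 4.31 at 0 hpl. The Myc network split. The Myc family gene mych read 7.62, 7.51 and 7.16 at 8 hpl, against 3.98, 4.13 and 3.79 at 0 hpl, and mycla changed by 1.73 ± 0.18. The third rise of the family, mycb (2.02 ± 0.37), was picked after its values were seen. The family member myclb fell to 7.06, 7.18 and 7.44 at 8 hpl, against 8.17, 8.31 and 8.12 at 0 hpl, and the Myc antagonist mxi1 to 8.79, 8.89 and 8.63 at 8 hpl, against 10.26, 10.26 and 10.27 at 0 hpl. Its other probe set changed by -0.99, and myclb was not called under hybridisation-control scaling.

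Factors of retinal progenitors and glia were balanced in number, with 9 rises and 9 falls among 32, and the median of -0.21 turned to 0.23 under hybridisation-control scaling, with 10 rises and 5 falls. The SoxC factor sox4a read 9.95, 9.86 and 9.44 at 8 hpl, against 7.42, 7.15 and 6.84 at 0 hpl. The eye-field homeobox gene six3b lay at 7.73, 7.91 and 6.85 at 8 hpl and 5.49, 5.49 and 5.27 at 0 hpl. The proneural factor ascl1a, required for Müller glia to reprogramme in zebrafish, lay at 6.64, 7.16 and 6.06 at 8 hpl and 4.64, 4.95 and 5.20 at 0 hpl. The stem cell factor sox2 rose by 1.06 ± 0.14. Falls were led by atoh8, a bHLH factor, at 5.18, 6.31 and 6.69 at 8 hpl, against 8.32, 8.71 and 7.93 at 0 hpl. The retinal homeobox gene rx2 (-1.85 ± 0.23), the Notch effector hey1 (-1.75 ± 0.35) and the homeobox gene prox1a (-1.05 ± 0.21, not called under that scaling) fell also. In all 8 of these genes the groups were apart, as in 3856 of all 4108 called probe sets. A rule that named sox4a and atoh8 requires it.

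**Figure D2:**
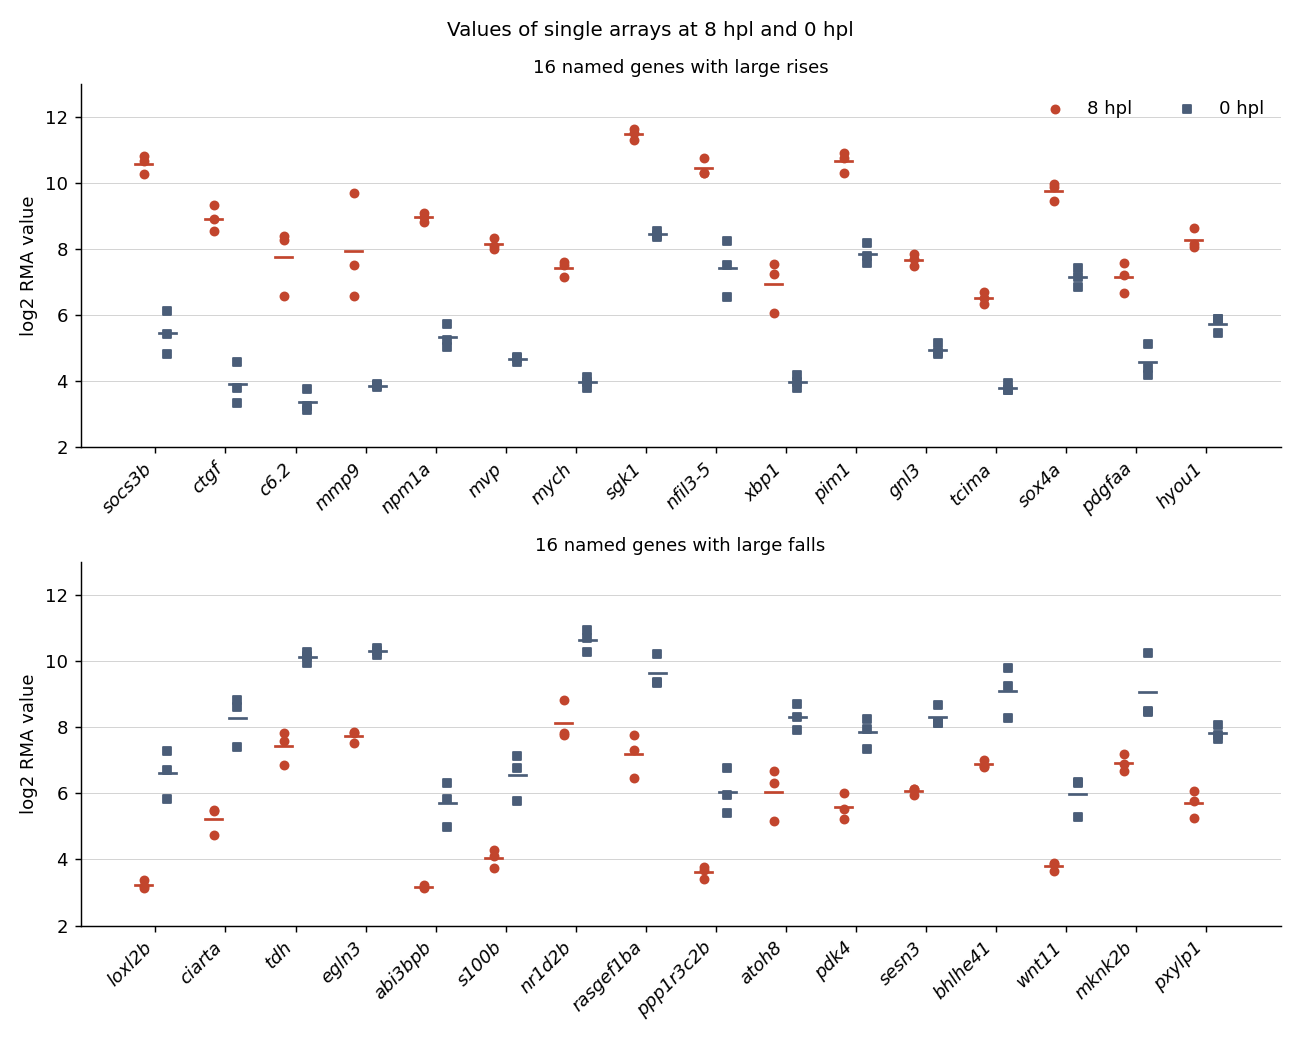
Log2 RMA values of single arrays for 16 named genes with large rises (top) and 16 with large falls (bottom), the largest described here, 8 hpl as red circles left of 0 hpl as blue squares, with a bar at the mean of 3 arrays. No gene shown has overlapping groups, as the rule for these genes requires, and mmp9 spreads most among the 8 hpl arrays (6.58 to 9.69).

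Enzymes that act on the matrix gave some of the largest rises and falls. The gelatinase mmp9 read 9.69, 7.52 and 6.58 at 8 hpl, against 3.81, 3.91 and 3.87 at 0 hpl, with the lesioned arrays spread over more than 3 log2 units. The lysyl oxidase homologue loxl2b, which crosslinks collagen, fell to 3.13, 3.39 and 3.19 at 8 hpl, against 6.71, 5.82 and 7.28 at 0 hpl, a change of -3.37 ± 0.28 (adjusted p = 7.38e-07). Of 44 named genes of the extracellular matrix and its enzymes 13 rose and 14 fell, and the median of -0.18 turned to 0.27 under hybridisation-control scaling, with 15 rises and 6 falls, and was -0.05 with arrays centred on the median. The adhesion linker ctnna1, which ties cadherins to actin, lay at 7.29, 7.89 and 7.55 at 8 hpl and 4.82, 4.71 and 5.78 at 0 hpl. The proteoglycan sdc4 (1.19 ± 0.13) and the tetraspanin cd63 (1.38 ± 0.19) rose. The matrix protein abi3bpb lay at 3.22, 3.16 and 3.14 at 8 hpl and 4.97, 5.82 and 6.32 at 0 hpl, the collagen col9a2 at 6.15, 6.14 and 6.93 at 8 hpl and 8.53, 7.97 and 8.77 at 0 hpl, and the tetraspanin cd9b at 4.80, 5.27 and 5.39 at 8 hpl and 7.61, 6.89 and 6.88 at 0 hpl. The falls named here kept the groups apart, as did 3856 of all 4108 called probe sets. A rule that named loxl2b and abi3bpb requires it.

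Most genes of the machinery that builds ribosomes rose. Of 74 named genes of ribosome assembly and RNA polymerase I 68 rose, none fell and 6 were not called, with a median change of 1.17. The median stayed between 1.16 and 1.26 when any 1 of the 6 arrays was left out. The nucleolar chaperone npm1a read 9.09, 8.96 and 8.80 at 8 hpl, against 5.02, 5.24 and 5.73 at 0 hpl, a change of 3.62 ± 0.18 (adjusted p = 3.75e-09). The nucleolar GTPase gnl3, known as nucleostemin, read 7.49, 7.68 and 7.85 at 8 hpl, against 4.87, 4.83 and 5.15 at 0 hpl. The pseudouridine synthase dkc1, which modifies ribosomal RNA, rose 4.51-fold. The small-subunit processing factor wdr43 rose 3.18-fold, and nifk, a partner of the proliferation protein Ki-67, rose 4.36-fold. The gene rpl7l1, a relative of a ribosomal protein, lay at 8.35, 8.94 and 9.09 at 8 hpl and 6.46, 6.42 and 6.23 at 0 hpl. The nuclease fcf1, which cuts the small-subunit RNA precursor, averaged 8.59 ± 0.43 at 8 hpl and 6.11 ± 0.11 at 0 hpl (SD, n = 3 each). Its other probe set changed by 1.45.

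Most genes for the proteins of the ribosome itself were not called. Of 74 cytosolic ribosomal proteins 26 rose (35.1%, near the 41.4% of all named genes), 1 fell and 47 were not called, with a median of 0.51. This count depends on single arrays, with 13 rises without 8 hpl replicate 3, 16 without 0 hpl replicate 1 and 41 without 8 hpl replicate 1. Scaling on the hybridisation controls gave 61. The small-subunit protein rps6 read 8.45, 8.31 and 8.49 at 8 hpl, against 7.56, 7.41 and 7.14 at 0 hpl, and the large-subunit protein rpl4 read 9.66, 9.77 and 10.43 at 8 hpl, against 8.77, 8.87 and 8.90 at 0 hpl. The fall was in rps27.1, with means of 8.73 ± 0.22 at 8 hpl and 9.18 ± 0.15 at 0 hpl (SD, n = 3 each), while its other probe sets changed by -0.15 and -0.18 and were not called. No member was lower without 8 hpl replicate 1, 8 hpl replicate 2, 0 hpl replicate 1 or 0 hpl replicate 3. At 16 hpl 62 of the 74 stood higher than at 8 hpl, where the share of named genes lower at 8 hpl than at 16 hpl is 22.9%.

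Other steps of translation rose with ribosome assembly. Of 16 aminoacyl-tRNA synthetases, which charge tRNAs, 15 rose and none fell, with a median of 1.09. The glycyl enzyme gars1 lay at 8.05, 8.32 and 8.60 at 8 hpl and 6.54, 6.62 and 6.77 at 0 hpl, and the glutaminyl enzyme qars1 changed by 1.72 ± 0.22. The member that did not pass was iars1 (-0.13 ± 0.17, adjusted p = 0.603). Of 48 translation factors 39 rose and 2 fell, with a median of 0.87. The cap-binding protein eif4e1c lay at 7.45, 7.78 and 7.58 at 8 hpl and 5.42, 6.10 and 5.70 at 0 hpl, while its other probe set changed by only 0.64. The termination factor etf1b (1.56 ± 0.16) and the elongation factor subunit eef1b2 (1.58 ± 0.16) rose also. On the deposited scale both genes that fell encode inhibitors of translation. The eIF4E-binding protein eif4ebp3l read 6.94, 7.02 and 6.66 at 8 hpl, against 8.78, 8.14 and 7.90 at 0 hpl, and pdcd4a, which blocks the helicase eIF4A, changed by -0.83 ± 0.20. Under hybridisation-control scaling this list had 1 fall and pdcd4a was not called, and without 8 hpl replicate 3 it had 3 falls.

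Genes of nucleotide synthesis changed in both directions. Of 25 genes of purine, pyrimidine and one-carbon synthesis 13 rose, 4 fell and 8 were not called, with a median of 0.52, and the falls numbered 2 without 8 hpl replicate 3 or 0 hpl replicate 1 and 1 under hybridisation-control scaling. The enzyme cad, which starts pyrimidine synthesis, read 8.73, 8.70 and 8.57 at 8 hpl, against 6.41, 6.08 and 6.29 at 0 hpl, while its dimmer probe set changed by 0.53 and was not called. The CTP synthase ctps1a read 7.89, 7.99 and 8.02 at 8 hpl, against 5.72, 5.91 and 5.75 at 0 hpl, with a spread of no more than 0.19 within either group. The uridine kinase uck2b lay at 6.81, 6.50 and 6.13 at 8 hpl and 4.19, 3.82 and 3.97 at 0 hpl, and the guanine nucleotide enzyme impdh1b at 7.23, 6.74 and 6.66 at 8 hpl and 5.18, 4.91 and 4.25 at 0 hpl. In all 4 the groups do not overlap, as in 3856 of all 4108 called probe sets, and a rule that named uck2b requires it. The falls were in 4 enzymes. The ribonucleotide reductase subunit rrm2 read 4.31, 4.31 and 4.36 at 8 hpl, against 5.88, 5.47 and 5.74 at 0 hpl, dut, which clears dUTP, changed by -0.97 ± 0.27, and the thymidylate synthase tyms by -0.63 ± 0.21. The purine enzyme adss1 changed by -0.73 ± 0.13. Under that scaling dut, tyms and adss1 were not called (limma adjusted p of 0.253, 0.658 and 0.394).

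Most genes for RNA processing and for traffic between nucleus and cytoplasm rose. Of 45 splicing and mRNA processing genes 29 rose and none fell (median 0.68), or 2 without 8 hpl replicate 1, and the arginine methyltransferase prmt5, which modifies splicing proteins, changed by 1.33 ± 0.15. Of 21 nuclear transport genes 15 rose and 1 fell (median 0.70). The Ran exchange factor rcc1 rose by 1.29 ± 0.13 and the import receptor kpnb1 by 1.12 ± 0.16, while kpna2 fell by 0.54 ± 0.19. No member was lower without 8 hpl replicate 1 or 2 or 0 hpl replicate 1 or 2, or under hybridisation-control scaling. Of 47 proteasome and ubiquitin genes 19 rose and none fell (median 0.44), with 11 rises without 0 hpl replicate 1 and 32 under hybridisation-control scaling. The 40.4% higher lies near the 41.4% of all named genes, and the regulatory subunit psmd11b changed by 1.41 ± 0.12.

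Chaperone genes of the ER, the cytosol and the mitochondria mostly rose. Of 43 genes for folding and secretion in the endoplasmic reticulum (the ER) 29 rose, 3 fell and 11 were not called, with a median of 0.73. The ER chaperone hspa5, known as BiP, read 9.59, 9.56 and 9.40 at 8 hpl, against 6.87, 6.96 and 7.25 at 0 hpl. Its exchange factor hyou1 lay at 8.65, 8.06 and 8.13 at 8 hpl and 5.47, 5.87 and 5.89 at 0 hpl. The transcription factor xbp1, which drives ER chaperone genes after stress, lay at 7.24, 7.53 and 6.05 at 8 hpl and 3.98, 4.20 and 3.78 at 0 hpl. The falls were the collagen prolyl hydroxylase subunits p4ha1b (-1.87 ± 0.28) and p4ha2 (-1.24 ± 0.23) and the disulphide isomerase txndc5 (-0.66 ± 0.15), of which only p4ha1b was called under hybridisation-control scaling.

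In the cytosol 25 of 33 heat shock proteins and chaperonin genes rose, 5 fell and 3 were not called (median 0.76). The Hsp70 gene hspa8 read 8.05, 8.57 and 8.19 at 8 hpl, against 7.25, 6.92 and 7.10 at 0 hpl, the Hsp110-type hspa4l changed by 1.93 ± 0.16, and the prefoldin subunit pfdn2 by 1.48 ± 0.13. The small heat shock genes hspb6 (-0.82 ± 0.25) and cryaba (-0.87 ± 0.15), the collagen chaperone serpinh1a (-1.30 ± 0.25), hspa12a (-1.49 ± 0.27) and the heat shock transcription factor hsf2 (-1.22 ± 0.20) fell. Under hybridisation-control scaling this list had 3 falls, and hspb6 and cryaba were not called. The call of hspb6 was also lost without 8 hpl replicate 1 or 0 hpl replicate 3. In mitochondria 45 of 56 chaperone, import and ribosome genes rose and 1 fell (median 0.90). The inner-membrane channel timm23a read 7.95, 7.83 and 7.22 at 8 hpl, against 5.32, 5.52 and 5.41 at 0 hpl. The chaperonin pair hspe1 (1.97 ± 0.20) and hspd1 (1.31 ± 0.18) and the prohibitin phb (1.25 ± 0.13) rose. The fall was the mitochondrial DNA packaging factor tfam (-1.09 ± 0.20), not called under hybridisation-control scaling. Of 40 genes of the respiratory chain and citric acid cycle 17 rose (42.5%, near the share of all named genes) and 2 fell (median 0.50), with 11 rises without 0 hpl replicate 3 and 32 under hybridisation-control scaling. Cytochrome c, cycsb, read 9.34, 9.99 and 9.39 at 8 hpl, against 7.42, 7.71 and 7.30 at 0 hpl. The uncoupling protein ucp1 fell to 5.87, 5.92 and 6.46 at 8 hpl, against 7.67, 7.67 and 7.55 at 0 hpl.

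Amino acid genes changed in both directions. Of 25 named genes of the amino-acid response and serine metabolism 14 rose and 7 fell, with a median of 0.78, or 15 and 3 under hybridisation-control scaling. The response factor atf4a, translated when amino acids or folding capacity run short, rose 2.95-fold, with 8.32, 8.39 and 8.33 at 8 hpl, against 6.58, 6.73 and 7.04 at 0 hpl. Its relative cebpg (1.26 ± 0.17) and the proline enzyme aldh18a1 (1.25 ± 0.16) rose. The threonine dehydrogenase tdh fell to 7.82, 7.60 and 6.86 at 8 hpl, against 10.28, 10.15 and 9.94 at 0 hpl. The serine synthesis enzyme phgdh fell to 7.28, 7.44 and 7.28 at 8 hpl, against 8.63, 8.57 and 8.67 at 0 hpl. The stress protein sesn3, a brake on the growth kinase TORC1, fell to 5.95, 6.13 and 6.13 at 8 hpl, against 8.12, 8.69 and 8.13 at 0 hpl. In atf4a, tdh, phgdh and sesn3 the groups do not overlap, as in 3856 of all 4108 called probe sets. A rule that named tdh and sesn3 requires it.

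Transporters moved both ways. Of 37 named solute carriers 19 rose (51.4%) and 10 fell (27%), with a median of 0.65, and hybridisation-control scaling gave 20 rises and 2 falls. The monocarboxylate carrier gene slc16a9a read 9.01, 9.01 and 8.38 at 8 hpl, against 6.52, 6.89 and 6.26 at 0 hpl. The vesicular nucleotide carrier slc17a9b lay at 6.46, 5.94 and 5.38 at 8 hpl and 3.38, 3.44 and 4.08 at 0 hpl. The amino acid carrier slc38a4 fell to 8.32, 9.05 and 9.21 at 8 hpl, against 10.51, 11.26 and 11.07 at 0 hpl. Of the paralogous phosphate carriers slc20a1b rose by 1.79 ± 0.24, while slc20a1a, picked after its values were seen, changed by -1.07 ± 0.23 and was not called under hybridisation-control scaling.

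**Figure D3:**
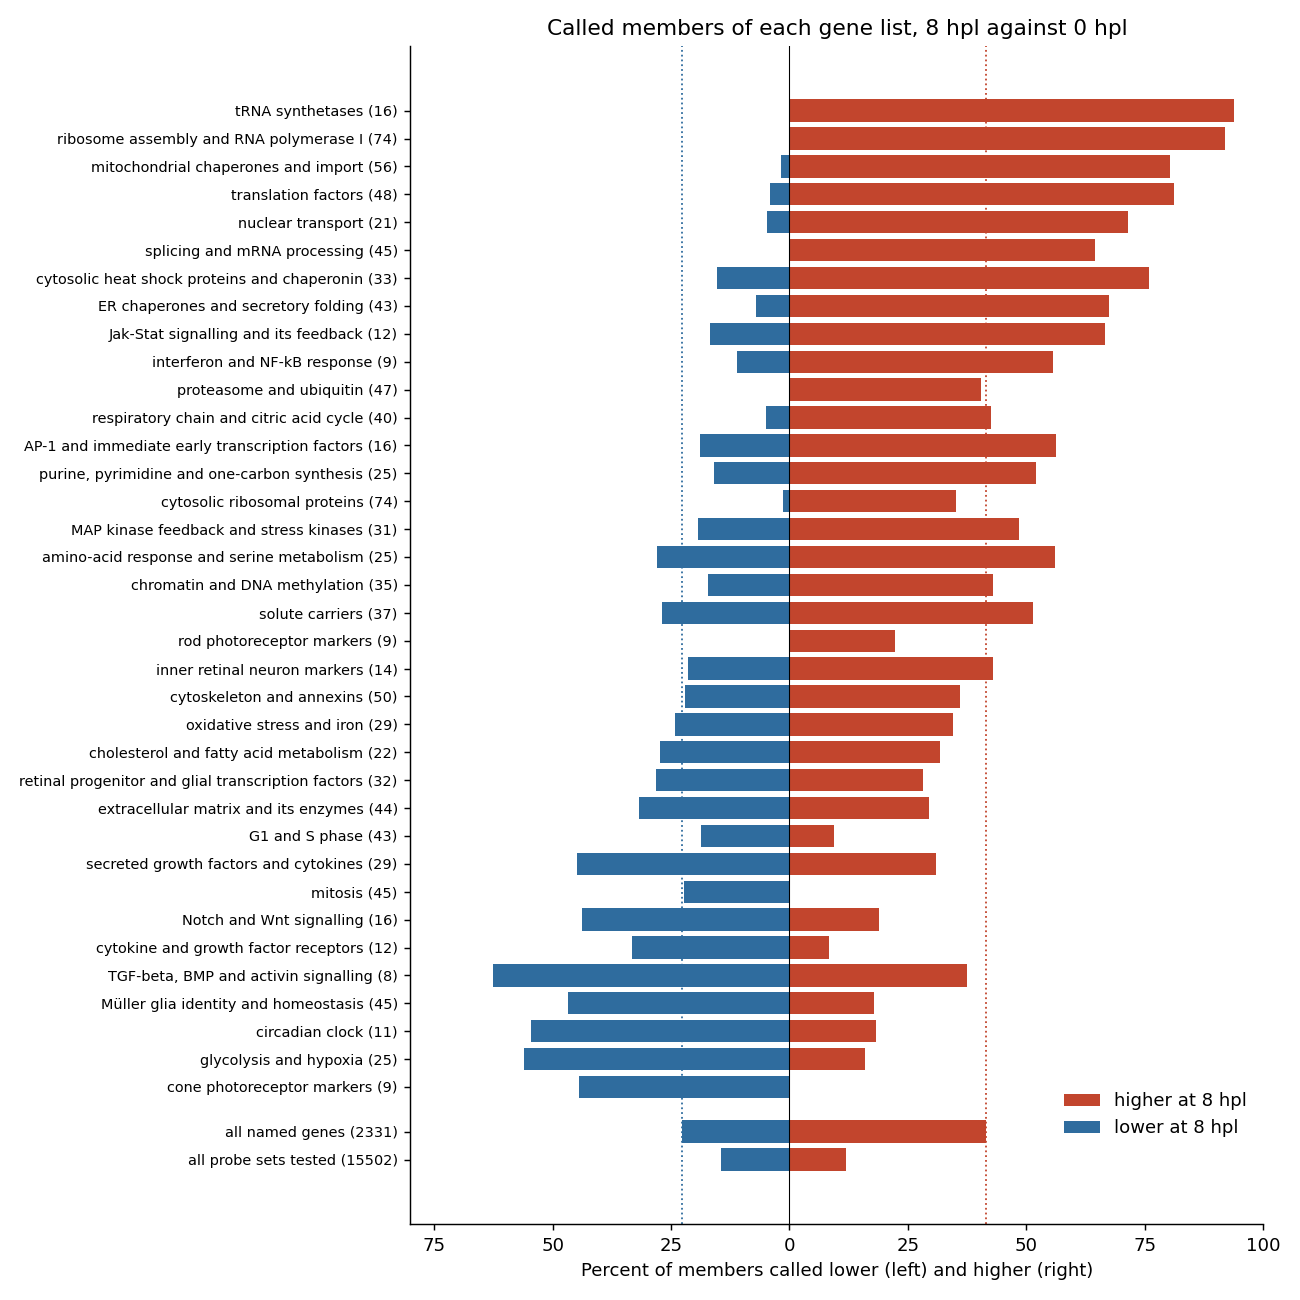
Percent of the named members of each list that were called higher (red, right) and lower (blue, left) at 8 hpl against 0 hpl, for lists described here with at least 8 named members and with the number of members in brackets, ordered by the difference of the shares. The dotted lines mark the 41.4% higher and 22.7% lower among all 2331 named genes, and the lowest bar shows the 12% and 14.5% among all probe sets. The named genes include clone and locus names, which no list holds. Lists of translation and ribosome assembly reach far past the dotted line for rises, and glycolysis, the clock and cone markers past that for falls.

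The time of day at which retinas were taken is not given in the sources used here. Of 11 named genes of the circadian clock 6 fell and 2 rose, with a median of -0.61, or 4 falls and -0.16 under hybridisation-control scaling. The clock repressor ciarta read 4.73, 5.51 and 5.48 at 8 hpl, against 7.39, 8.61 and 8.82 at 0 hpl. The nuclear receptor nr1d2b, a repressor of bmal genes, lay at 7.81, 8.83 and 7.77 at 8 hpl and 10.27, 10.69 and 10.94 at 0 hpl. Its other probe set changed by -1.23. The repressor bhlhe41 lay at 6.81, 7.02 and 6.84 at 8 hpl and 8.29, 9.24 and 9.80 at 0 hpl. The rises were nfil3-5, a bZIP repressor, at 10.75, 10.29 and 10.30 at 8 hpl, against 8.23, 7.52 and 6.54 at 0 hpl, and the nuclear receptor rorcb (1.29 ± 0.20). All 5 kept the groups apart, as did 3856 of all 4108 called probe sets, and rules that named them require it. The clock gene per3 fell by 1.70 ± 0.37. In ciarta, bhlhe41 and nfil3-5 the control arrays spread over more than 1 log2 unit.

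Genes of sugar use and of the hypoxia response fell more often than they rose. Of 25 named members 14 fell and 4 rose, with a median of -0.59, and 9 fell without 0 hpl replicate 2. Hybridisation-control scaling left the median at -0.15 with 6 rises and 6 falls. The HIF prolyl hydroxylase egln3, itself a HIF target, read 7.83, 7.85 and 7.53 at 8 hpl, against 10.19, 10.39 and 10.31 at 0 hpl. The pyruvate dehydrogenase kinase pdk4 lay at 5.53, 6.01 and 5.21 at 8 hpl and 7.34, 7.96 and 8.25 at 0 hpl. The glycogen-targeting phosphatase subunit ppp1r3c2b lay at 3.69, 3.76 and 3.42 at 8 hpl and 5.95, 6.76 and 5.39 at 0 hpl, and its relative ppp1r3ca, picked after its values were seen, changed by -1.97 ± 0.25. The glycogen and glucose enzyme pgm1 (-1.55 ± 0.23) and the HIF alpha subunit-like hif1al (-1.63 ± 0.20) fell. The rises were in angptl4, the lactate carrier slc16a3b (0.88 ± 0.16) and the pentose phosphate enzymes pgd (0.72 ± 0.17) and tktb (0.73 ± 0.11).

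Lipid and prostaglandin genes were mixed, 7 higher (31.8%) and 6 lower (27.3%) among 22, with a median of 0.02, or 2 lower under hybridisation-control scaling. The cyclooxygenases went opposite ways. The inducible ptgs2a rose, at 6.17, 7.66 and 6.29 at 8 hpl, against 4.58, 5.49 and 4.85 at 0 hpl, and ptgs1 fell, at 5.03, 5.53 and 5.38 at 8 hpl, against 6.66, 6.93 and 6.82 at 0 hpl. The fatty acid desaturase fads2 changed by -1.60 ± 0.24 and the isoprenoid enzyme fdps by 1.12 ± 0.22. Without 8 hpl replicate 3 the falls of this list numbered 3.

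Transcripts of the Müller glia list fell more often than they rose. Of 45 named genes of glial identity and homeostasis 21 fell and 8 rose, with a median of -0.49 that hybridisation-control scaling brought to -0.05, with 10 rises and 6 falls. The calcium-binding protein s100b read 3.74, 4.30 and 4.09 at 8 hpl, against 6.78, 7.14 and 5.78 at 0 hpl. The water channel aqp1a.1 lay at 9.74, 9.68 and 9.46 at 8 hpl and 10.70, 10.90 and 10.82 at 0 hpl. The fall of rlbp1a (-0.99 ± 0.17) exceeded that of glula (-0.45 ± 0.15). The same scaling brings rlbp1a to -0.55 and glula to -0.01, and neither was called. The glula call was also lost without any 1 of the arrays other than 8 hpl replicate 1, while the paralogue glulb rose, at 7.92, 8.31 and 7.76 at 8 hpl, against 6.64, 6.90 and 6.74 at 0 hpl. Genes of retinoic acid signalling were among them. The retinoic acid-degrading enzyme cyp26a1 lay at 9.45, 9.47 and 8.75 at 8 hpl and 10.42, 10.67 and 10.73 at 0 hpl, and the receptor raraa fell by 1.27 ± 0.22. The retinol dehydrogenase rdh10b, which makes retinaldehyde, rose by 1.37 ± 0.23, and dhrs3a, which turns it back to retinol, rose by 1.13 ± 0.29. The largest rises on this list, the tetraspanins tspan36 (2.35 ± 0.22) and tspan17 (2.10 ± 0.22), are membrane proteins with no particular tie to glia.

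Notch and Wnt genes fell more often than they rose, 7 of 16 lower and 3 higher, with a median of -0.60 on the deposited scale. Under hybridisation-control scaling 3 were lower and 3 higher, with a median of -0.16. The Notch ligand dld changed by -1.15 ± 0.23, jag1b by -1.11 ± 0.28 and the modifier lfng by -0.61 ± 0.14. All 3 lost their calls under that scaling (limma adjusted p of 0.0828, 0.13 and 0.651). The ligand jag2b rose, at 6.71, 6.53 and 6.35 at 8 hpl, against 5.76, 5.52 and 5.51 at 0 hpl. The protease adam17a, which sheds membrane-bound ligands such as hbegfa, rose by 0.77 ± 0.16.

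The cytoskeleton list had 18 rises (36%) and 11 falls (22%) among 50, near the shares of all named genes. Its median was 0.28, and hybridisation-control scaling gave 24 rises and 3 falls. The tubulin tuba5 read 7.85, 8.22 and 8.03 at 8 hpl, against 6.09, 6.11 and 6.02 at 0 hpl. The membrane myosin myo1e (2.11 ± 0.15) and the scaffold iqgap2 (2.25 ± 0.19) rose. Of the calponins, which bind actin, cnn2 rose, at 10.54, 10.71 and 9.98 at 8 hpl, against 8.45, 8.74 and 8.50 at 0 hpl, and cnn3b fell, with means of 6.90 ± 0.24 at 8 hpl and 8.38 ± 0.28 at 0 hpl. Stress genes beside these were mixed. In the oxidative stress and iron list 10 of 29 rose (34.5%) and 7 fell (24.1%), near the shares of all named genes (13 and 2 under that scaling). The rises were led by the ferritin fthl27 at 9.70, 10.17 and 10.08 at 8 hpl, against 7.51, 7.96 and 7.69 at 0 hpl, and the glutathione synthesis subunit gclm (1.58 ± 0.17).

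The share of cell division genes that fell was no higher than the 22.7% of all named genes, and few or none rose. Of 43 G1 and S phase genes 4 rose (9.3%) and 8 fell (18.6%), with a median of -0.16 that turned to 0.28 under hybridisation-control scaling, with 10 rises and 1 fall. The rises numbered 1 or 2 without 8 hpl replicate 1 or 2 or 0 hpl replicate 1 or 3. Of 45 mitosis genes none rose and 10 fell (22.2%), with a median of -0.35 that turned to 0.10 under the same scaling, with 1 rise and no fall. The falls numbered 5 without 8 hpl replicate 1 and 6 without 8 hpl replicate 3 or 0 hpl replicate 2. Without 8 hpl replicate 3 a single mitosis gene was higher. The replication clamp pcna read 6.08, 6.14 and 6.09 at 8 hpl, against 6.34, 6.36 and 6.43 at 0 hpl (adjusted p = 0.17). The cyclin gene ccnd1 lay at 8.89, 8.93 and 8.68 at 8 hpl and 8.36, 8.48 and 8.43 at 0 hpl (adjusted p = 0.0852), so its arrays were apart though the change of 0.41 ± 0.17 was not called. Centring the arrays on their medians gave 0.54 and a call (adjusted p = 0.0455). Topoisomerase top2a, which untangles chromosomes, fell to 3.47, 3.43 and 3.75 at 8 hpl, against 4.65, 4.26 and 4.48 at 0 hpl.

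Markers of other retinal cells moved too. Of 9 rod genes 2 rose and none fell, with a median of 0.73 (4 rises and 1.17 under hybridisation-control scaling), and their summed linear level ran from 2418 to 4738 in the 8 hpl arrays, against 1292 to 2407 at 0 hpl. Without 8 hpl replicate 2 or 0 hpl replicate 3 no rod gene was higher, without 8 hpl replicate 2 a single one was lower, and without 8 hpl replicate 3 there were 4. The rod transducin subunit gngt1 read 9.35, 10.27 and 9.83 at 8 hpl, against 9.04, 8.92 and 7.18 at 0 hpl. Of 9 cone genes none rose and 4 fell, with a median of -0.85 (1 fall and -0.41 under the same scaling), and the sum ran from 436.3 to 657.7 at 8 hpl, against 882.8 to 1416 at 0 hpl. The cone phosphodiesterase pde6c lay at 6.82, 7.14 and 5.96 at 8 hpl and 8.47, 8.83 and 7.89 at 0 hpl. Of 14 genes of inner retinal neurons 6 rose (42.9%) and 3 fell (21.4%), near the shares of all named genes, with sums of 3153 to 5184 at 8 hpl and 3062 to 3979 at 0 hpl, and 3 rose without 8 hpl replicate 1, 8 hpl replicate 2 or 0 hpl replicate 3. The bipolar cell factor vsx1 (1.53 ± 0.29) and the GABA enzymes gad1b (1.18 ± 0.28) and gad2 (1.35 ± 0.42, not called without 8 hpl replicate 1 or 2 or 0 hpl replicate 2 or 3) rose, as did the vesicle protein syt4 (2.31 ± 0.26). The Müller glia list summed to 22030 to 25840 at 8 hpl, against 30660 to 33350 at 0 hpl. All these sums are on the deposited scale. They were not taken under hybridisation-control scaling, which brought the median change of the Müller glia list to -0.05. Of 4 astrocyte and oligodendrocyte genes 3 fell, and none of 3 endothelial genes was called, though 1 was higher without 8 hpl replicate 3 and 1 lower without 8 hpl replicate 2 or 0 hpl replicate 1. The 4 genes of the lens and cornea list include the keratins krt8 (2.02 ± 0.28) and krt18a.1 (2.21 ± 0.33), which rose, and the crystallins cryba4 (-1.57 ± 0.18) and cryaba, which fell. The carbonic anhydrase cahz, the only red blood cell marker named here, also stood among the genes chosen as Müller glia markers. It changed by -0.62 ± 0.20 (not called under hybridisation-control scaling), and rpe65a of the pigment epithelium was not called. Microglia markers were not analysed here, because none carries a name among these probe sets. The part of these cells in the changes above was not tested.

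**Figure D4:**
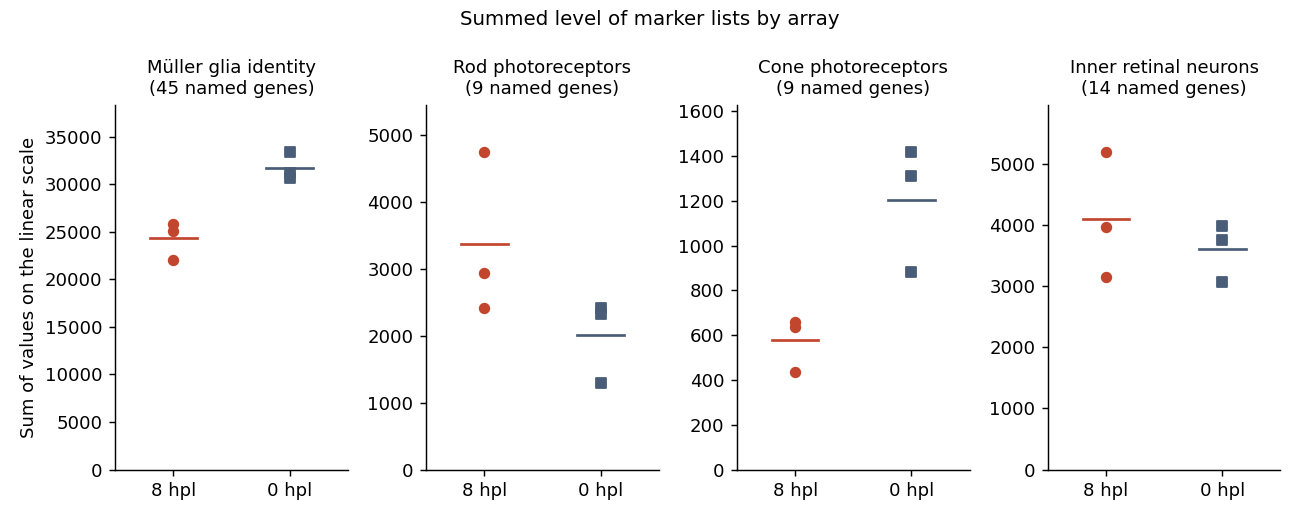
Summed linear values (2 to the power of the log2 value, vertical axis) of the named genes of 4 marker lists, 1 point per array with a bar at the mean, 8 hpl left of 0 hpl. On the deposited scale the sums for Müller glia and cones do not overlap between the groups and are lower at 8 hpl. The sums were not taken under hybridisation-control scaling. Those for rods are higher at 8 hpl but nearly touch (lowest at 8 hpl 2418, highest at 0 hpl 2407), and those for inner neurons overlap.

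The next time sampled, 16 hpl, was set directly against 8 hpl. Of all probe sets 1332 (8.59%) differed, 483 higher (3.12%) and 849 lower (5.48%) at 8 hpl than at 16 hpl. Of the named genes 182 were higher at 8 hpl (7.81%) and 534 lower (22.9%). Among the 8 hpl rises the gene that stood most above its 16 hpl level was nfil3-5, with 10.45 ± 0.27 at 8 hpl and 6.66 ± 0.20 at 16 hpl (mean ± SD, n = 3 each), a difference of 3.79. The actin-binding xirp1 followed with 8.23 ± 0.14 at 8 hpl and 6.01 ± 0.09 at 16 hpl, and ypel3, a growth-suppressing gene in mammals, with 10.25 ± 0.26 at 8 hpl and 8.18 ± 0.09 at 16 hpl. The kinase stk17a (1.63), the homeobox gene meis2b (1.63), the amino acid carrier slc43a2a (1.48) and tgfbi (1.47) were also higher at 8 hpl than at 16 hpl. In the rod list 4 of 9 genes were higher at 8 hpl than at 16 hpl and 1 lower, and in the inner neuron list 7 of 14 higher and 2 lower, with gngt1 at 2.38, rbp3, the retinoid-binding protein of photoreceptors, at 1.83 and gad2 at 1.65.

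Several genes that fell at 8 hpl stood lower then than at 16 hpl. In the clock list 3 of 11 genes were lower at 8 hpl than at 16 hpl and 3 higher. The repressor ciarta averaged 5.24 ± 0.44 at 8 hpl and 8.87 ± 0.22 at 16 hpl, bhlhe41 6.89 ± 0.11 at 8 hpl and 9.18 ± 0.18 at 16 hpl, and nr1d2b 8.14 ± 0.60 at 8 hpl and 9.86 ± 0.16 at 16 hpl. The arginase arg2 (-2.36), the translation inhibitor eif4ebp3l (-1.45), hsf2 (-1.34), dut (-1.35) and the Ras exchange factor rasgef1ba (-1.27) were lower at 8 hpl as well. Most genes of protein folding that differed were lower at 8 hpl. In the ER list 25 of 43 (58.1%) were lower at 8 hpl than at 16 hpl and none higher, and in the cytosolic list 19 of 33 (57.6%) and none, both above the 22.9% lower among all named genes. In the list of ribosome assembly 19 of 74 were lower (25.7%), near that share, and none higher.

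For several of the largest rises no difference between 8 and 16 hpl was called. It was -0.16 ± 0.24 (log2 ± SE) for socs3b, with an adjusted p = 0.806. It was -0.06 ± 0.12 for sgk1, -0.19 ± 0.18 for npm1a and -0.28 ± 0.14 for LOC570832. Others were lower at 8 hpl, among them mmp9 (-3.46), kng1 (-1.76), nrp2b (-2.32) and ascl1a (-1.12). The Jak-Stat list had 1 gene higher at 8 hpl than at 16 hpl and none lower, and the AP-1 list 6 higher and 1 lower.

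**Figure D5:**
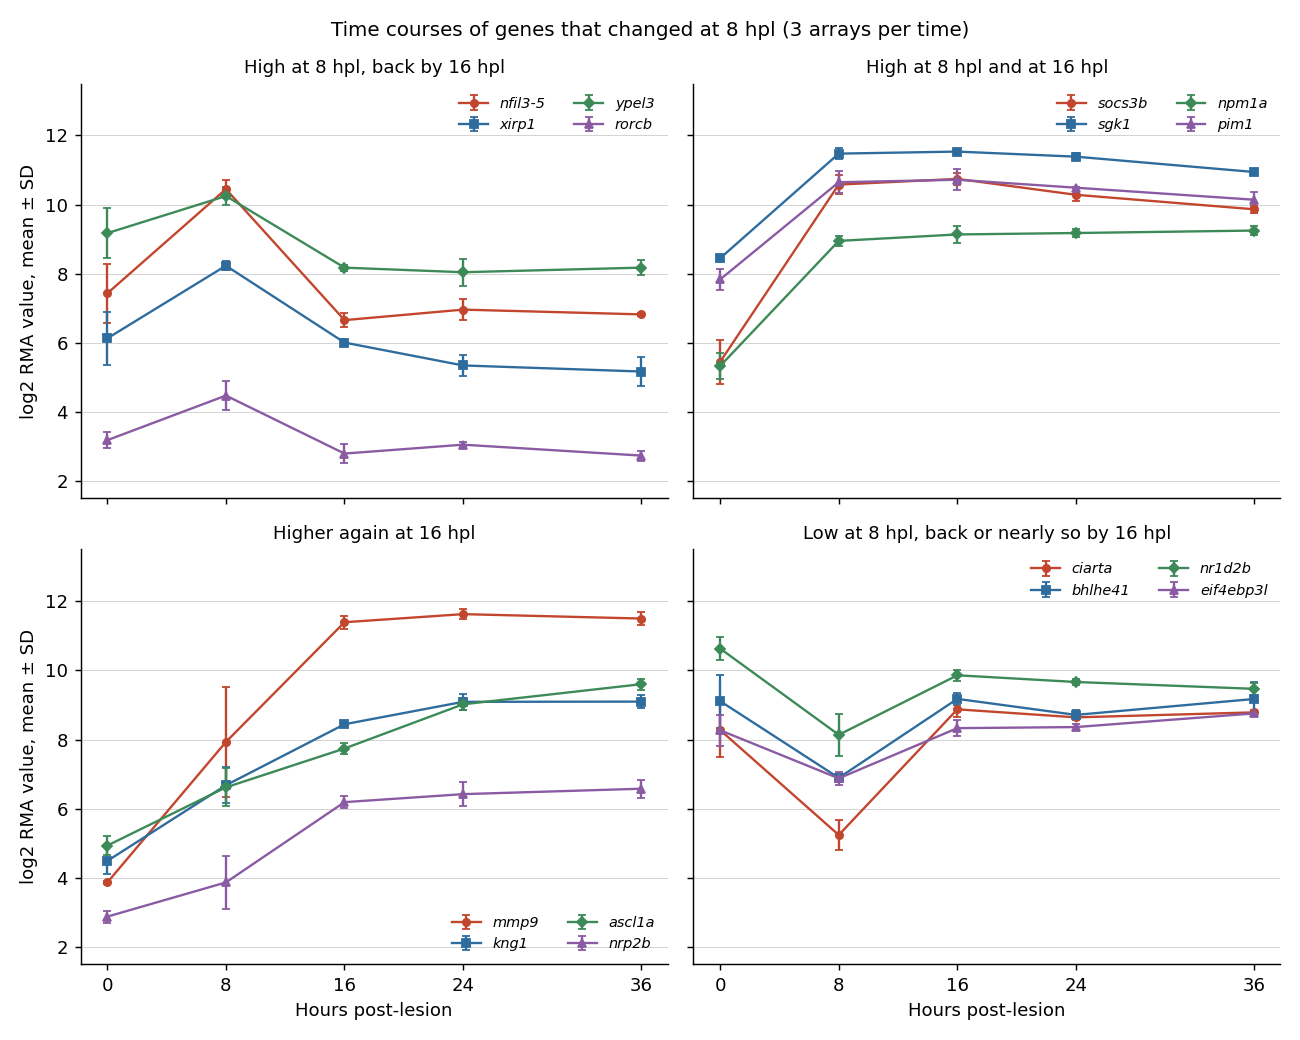
Time courses of 16 genes (mean ± SD of 3 arrays, log2 RMA value, against hours post-lesion), in panels for genes high at 8 hpl and back by 16 hpl, high at both times, higher again at 16 hpl, and low at 8 hpl but back or nearly so by 16 hpl. The panel of nfil3-5 peaks at 8 hpl, that of socs3b stays high after 8 hpl, that of mmp9 goes on to 16 hpl, and that of ciarta dips at 8 hpl.

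Genes outside these lists also changed strongly. The regulator tcima lay at 6.32, 6.71 and 6.52 at 8 hpl and 3.74, 3.72 and 3.94 at 0 hpl, while its other probe set changed by 0.79 and was not called. The sulfotransferase sult1st1 fell to 4.34, 3.68 and 3.92 at 8 hpl, against 5.88, 6.66 and 5.72 at 0 hpl. The genes tlcd1 (-2.04 ± 0.22), mllt11 (-2.03 ± 0.31, with its other probe set at -1.29) and pxylp1 (-2.13 ± 0.20) fell as well. Of 35 chromatin genes 15 rose (42.9%) and 6 fell (17.1%), near the shares of all named genes (median 0.24, or 1 fall under hybridisation-control scaling). The histone chaperone nap1l4a led the rises (1.88 ± 0.16). Many strong changes have no usable gene name. Of the 1052 probe sets called and changed at least 2-fold 642 carry a proper gene symbol, 190 a clone or locus name and 185 no symbol or several, and 35 are not in the authors' table. Beside the C7-like locus, the filamin-regulating FAM101B-like LOC561585, picked after its values were seen, rose by 2.97 ± 0.27. The authors' deposited table gives a p-value under 0.05 at 8 hpl for 61 probe sets, 48 with a positive and 13 with a negative fold change. All 61 were called here. Their shared direction was fixed in advance, because both sets of changes come from the same values. Many genes described here are not under 0.05 in that table, among them stat3, sox2 and ascl1a.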

How the data were processed

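The authors deposited log2 values of 15617 probe sets from Affymetrix zebrafish arrays, made with RMA per the submitters' processing notes; RMA subtracts background, normalises by quantiles and summarises probes. The authors also deposited a table of 3164 probe sets with a p-value and a signed fold per time, a score that is negative for falls and matches the log2 values, whose symbols and titles name the genes here. The version of RMA is not given in the sources used here. Older symbols were updated through a gene table (983 by synonym, 499 kept without a match).

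The 15 arrays entered a linear model by limma 3.58.1 under R 4.3.3, with lmFit, eBayes and 1 mean for each of 5 times, leaving out 115 control probe sets, with Benjamini-Hochberg adjustment over 15502 probe sets and calls at an adjusted p under 0.05. Where a gene had several probe sets, the brightest on average stood for it. The other probe sets are given for some genes only. The SE of a change comes from the same fit, so its spread is estimated over all 5 times. The fit was tested on simulated data. Groups were taken from the sample titles, which call the arrays biological replicates, and precision is limited by their number. The gene lists and the rule for genes named were chosen with earlier results of these data known, and 21 list members caught by name alone were left out. A gene can count in several lists, as wnt11 and p4ha1b do. The rule took the 24 largest rises and 20 largest falls whose arrays do not overlap, up to 5 members of each list per direction, and 12 rises and 8 falls against 16 hpl. Some genes it took, and 1 list, are not reported here. The genes gja1b, rho, iars1, mycb, slc20a1a, ppp1r3ca, rpe65a and those with LOC names lie outside it and were picked after their values were seen. Replicate numbers were not taken as pairs: deviations of same-numbered arrays at 8 and 0 hpl correlated at -0.11, -0.02 and -0.18. Those of same-numbered arrays at 8 and 16 hpl correlated at 0.22, -0.04 and 0.32, and of differently numbered ones at -0.29 to 0.15. Alternatives covered scaling, dim probe sets, variance model, array weights, arrays in the fit, thresholds, replicate block and single arrays. Sequences were not used here.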

Additional observations from a re-analysis of the deposited data

Results flagged for a closer look

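In 3 named genes every array at 8 hpl lay on one side of the 0 hpl range and every array at 16 hpl on the other, with a called difference between 8 and 16 hpl. The arginase arg2, which breaks down arginine, averaged 6.66 ± 0.40 at 8 hpl and 9.02 ± 0.11 at 16 hpl, with 7.43 ± 0.40 at 0 hpl (log2, mean ± SD, n = 3 each), and 8 minus 16 hpl was -2.36 ± 0.22 (log2 ± SE, limma adjusted p = 1.91e-05). The ribosomal protein gene rps27.1 averaged 8.73 ± 0.22 at 8 hpl and 9.47 ± 0.10 at 16 hpl, with 9.18 ± 0.15 at 0 hpl, and 8 minus 16 hpl was -0.74 ± 0.16 (limma adjusted p = 0.00824). The gene ypel3 ran the other way, with 10.25 ± 0.26 at 8 hpl, 8.18 ± 0.09 at 16 hpl and 9.18 ± 0.73 at 0 hpl, and 8 minus 16 hpl was 2.07 ± 0.28 (limma adjusted p = 0.000435). The genes were found among the 201 named in the text. The scaling on hybridisation controls leaves the rps27.1 difference between 8 and 0 hpl at -0.01, and the other rps27.1 probe sets changed by -0.15 and -0.18 at 8 against 0 hpl and were not called. The same scaling leaves the arg2 difference between 8 and 0 hpl at -0.33 (limma adjusted p = 0.433). That arg2 call was also lost without 8 hpl replicate 3, 0 hpl replicate 2 or 0 hpl replicate 3. When only the 2 groups were fitted, none of the 3 genes was called at 8 against 0 hpl.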

How the results depend on the processing

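At 8 against 0 hpl the count of called probe sets kept within 1.5 times of 4108 under a repeated quantile normalisation, median centring, hybridisation-control scaling, the dimmest 25% left out, trend and robust settings and array weights. Centring on the median gave 1239 lower, 237 of them at least 2-fold. Hybridisation-control scaling gave 3576 higher and 220 lower, at least 2-fold 1784 and 117, and against 16 hpl 637, with 161 higher and 476 lower. Array weights gave 2078 against 16 hpl, 847 of them higher. Fitting only the groups compared gave 2354, with 1091 lower, and against 16 hpl 806, with 316 higher and 490 lower. A minimum change of 2-fold gave 1052, with 680 higher and 372 lower, and against 16 hpl 377, with 199 and 178. An adjusted p under 0.01 gave 1948, with 1146 and 802, and against 16 hpl 550, with 205 and 345. The cause of these shifts was not tested, other than that the stricter thresholds leave fewer calls by construction.

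Leaving out 1 array at a time gave 2992 to 3867 called probe sets, 1434 to 1917 higher and 1429 to 2142 lower, and at least 2-fold 627 to 781 higher and 334 to 431 lower. The lowest count of falls, 1429, came without 8 hpl replicate 3. Against 16 hpl the ranges were 785 to 1228 called, 248 to 487 higher and 503 to 829 lower. The count against 16 hpl was 785 without 16 hpl replicate 1, 866 without 16 hpl replicate 2 and 815 without 16 hpl replicate 3, and 562 were lower without 8 hpl replicate 3. What same-numbered arrays share was not tested, and a fit with the replicate block called 3901 and, against 16 hpl, 1256.

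Of 201 genes named, 32 crossed the threshold or turned under hybridisation-control scaling, and gja1b turned from a fall to 0.0665. Fitting only the 2 groups compared moved 17 across the threshold, among them stat3, gngt1, rbp3, gad2, dut and fsta. Leaving out 1 array of the 2 groups moved 9 to 13 across it, among them kpna2, tyms, fsta, acvr1ba, arg2, cahz, hspb6, gngt1, rbp3, dut and tyro3, besides those named with their arrays. The change was lost without 8 hpl replicate 2 or 0 hpl replicate 3 for gngt1 and rbp3, without 8 hpl replicate 3 or 0 hpl replicate 1 for dut, and without 0 hpl replicate 3 for tyro3. Dim probe sets limit what can be read, since RMA values give no detection.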

Other observations

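Control probe sets outside the comparison also carry values. A control probe set named for a green fluorescent protein averaged 3.10 ± 0.18 at 8 hpl and 3.47 ± 0.23 at 0 hpl, both below the array median (two-sided exact permutation p = 0.2, n = 3 each). Whether it, or another control probe set, reads the reporter of this line was not tested. The difference between the 3′ and 5′ probe sets of the GAPDH control was 0.05 ± 0.32 at 8 hpl and -0.12 ± 0.11 at 0 hpl (exact permutation p = 0.6). Within 8 hpl it was -0.08, -0.18 and 0.41, with the array of replicate 3, which had the lowest array weight, the highest. A further Affymetrix control probe set, shown after its values were seen and with its target not described in the sources used here, read 8.91, 8.83 and 8.74 at 8 hpl and 10.04, 9.96 and 9.99 at 0 hpl (difference of means -1.17, exact permutation p = 0.1). The lower quartile of the arrays stood at 3.25 ± 0.04 at 8 hpl and 3.45 ± 0.06 at 0 hpl (exact permutation p = 0.1, the smallest that 3 against 3 arrays can give).

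The complement C7-like locus LOC570832 stayed high after 8 hpl. It averaged 5.37 ± 0.16 before the lesion, 12.07 ± 0.20 at 8 hpl, 12.34 ± 0.04 at 16 hpl, 11.88 ± 0.06 at 24 hpl and 10.89 ± 0.15 after 36 hours (log2, mean ± SD, n = 3 each). The gene c6.2 averaged 3.37 ± 0.34 before the lesion, 7.74 ± 1.02 at 8 hpl, 8.22 ± 0.68 at 16 hpl, 6.94 ± 0.07 at 24 hpl and 5.74 ± 0.56 after 36 hours.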
